A study of Mus musculus with 5 samples.

Results

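The 9 genes described here act in the bending of epithelial sheets and in planar cell polarity: Shroom2, Shroom3, Rock1, Rock2, Myh9, Myh10, Rhoa, Vangl2 and Celsr1. They were taken by name from the 27998 genes of a droplet single-cell RNA sequencing matrix of the mouse ocular area, and all 9 were found. The samples are 5 wild-type C57BL/6J embryos, 1 each with 12, 16, 20, 24 and 26 somites, whose optic areas on both sides were cut out with a needle and dissociated with trypsin. No embryo carried a mutation or treatment, and each stage had a single embryo. The deposited matrix marks 5 libraries by a number on each cell barcode, from 1 to 5, but names no stage for them. No stage comparison and no test was therefore made, and values are given library by library.

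Apical constriction narrows the apical end of epithelial cells so that a flat sheet bends, as in the invagination of the lens pit. Shroom scaffold proteins recruit the kinase ROCK to apical junctions, where ROCK, activated by the GTPase RhoA, phosphorylates the light chains of non-muscle myosin II, and the myosin then pulls on apical actin. Planar polarity proteins such as Vangl2 and Celsr1 sit at opposite or shared sides of neighbouring cells and orient such shape changes in the plane of the sheet, as known from neural tube closure.

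The genes lie, on build GRCm38, at chrX:152609509-152769465 on the minus strand (Shroom2), chr5:92683435-92965318 on the plus strand (Shroom3), chr18:10064401-10182045 on the minus strand (Rock1), chr12:16894895-16987823 on the plus strand (Rock2), chr15:77760587-77842175 on the minus strand (Myh9), chr11:68691559-68816632 on the plus strand (Myh10), chr9:108306129-108337934 on the plus strand (Rhoa), chr1:172000960-172028444 on the minus strand (Vangl2) and chr15:85898929-86033777 on the minus strand (Celsr1), as annotated by GENCODE. Exons of Shroom3 and Rhoa overlap exons on the opposite strand, of 4932430I15Rik and of Gm37401 and Tcta, so reads there depend on strand-aware counting, whose setting is not given in the sources used here. The libraries held 1307 to 1996 barcodes and 41694822 to 72925591 UMIs each (distinct RNA molecules counted), with medians of 20713 to 30922 UMIs per barcode, lowest in library 5. In all, 40 barcode sequences occurred in more than 1 library, on 80 of 8194 barcodes. After filtering, 8106 cells were kept.

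Cells were clustered without the 9 genes and without the related gene lists used below, and clusters were named from markers. The optic vesicle-like class held 2108 cells with Rax, an eye field transcription factor, at 159 counts per 1000000 UMIs (CPM), against 65.3, 2.69 and 3.92 CPM in the other forebrain-like, surface ectoderm-like and mesenchyme-like classes. Those classes held 790, 364 and 1858 cells. Epcam marked surface ectoderm-like cells at 367 CPM, against at most 2.82 CPM in the other main classes, and Prrx1 marked mesenchyme-like cells at 121 CPM, against at most 6.21 CPM. There were also 388 endothelium-like, 253 erythroid-like and 108 migratory neural crest-like cells. Of the optic vesicle-like cells, 167, 360, 500, 260 and 821 came from libraries 1 to 5 in turn. Of the surface ectoderm-like cells 36, 114, 110, 72 and 32 did, and library 5 held no other forebrain-like cells. Of the lens genes, Foxe3 and Pitx3 were at 0 in the surface ectoderm-like class. In its library 5 cells Prox1 was also at 0, but Maf was at 10.2 CPM and Cryab at 71.4 CPM. These values do not settle whether the class holds lens cells. The class joined several sub-clusters, among them 61 cells led by Pitx1 and Hesx1, 76 led by Dlx5 and Epcam, and 49 led by Sct and Neurog1. Dlx5 is on the marker list of other placodes. The optic vesicle markers summed to 384, 499, 457, 461 and 107 CPM in libraries 1 to 5 of this class. Which of its cells lay over the eye is not known. Levels are the summed UMIs of a gene scaled to the summed UMIs of the class, and intervals are exact and cover counting error only. Each value counts RNA molecules at their 3′ ends, so a level is compared between cell classes and never between genes.

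Upstream sequences are shown for the 3 members that have an upstream window free of annotated exons. The set of RefSeq promoters used here (GRCm38.p6) held starts for 7 of the 9 genes. The windows below hold the 250 bases before 1 start each of Shroom3 (chr5:92897743-92897992, plus strand), Shroom2 (chrX:152769487-152769736, minus strand) and Myh9 (chr15:77842176-77842425, minus strand), which no annotated exon overlaps. The Shroom3 start is 1 of 2 and the Shroom2 start, its most upstream, 1 of 4 in that set. The 3 other Shroom2 windows had 0, 1 and 4 CpG dinucleotides and neither of the motifs below, and they are not shown. The windows shown are written 5′ to 3′ on the gene's strand, with short motifs in capitals. One is the GC box, GGGCGG, in either orientation. The other is the core of a second common promoter element, CCAAT, also in either orientation.
Shroom3: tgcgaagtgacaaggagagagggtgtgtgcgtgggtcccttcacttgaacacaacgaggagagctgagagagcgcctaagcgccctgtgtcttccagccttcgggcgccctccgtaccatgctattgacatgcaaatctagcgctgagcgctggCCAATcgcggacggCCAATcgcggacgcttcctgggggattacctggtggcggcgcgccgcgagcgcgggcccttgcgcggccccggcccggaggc
Shroom2: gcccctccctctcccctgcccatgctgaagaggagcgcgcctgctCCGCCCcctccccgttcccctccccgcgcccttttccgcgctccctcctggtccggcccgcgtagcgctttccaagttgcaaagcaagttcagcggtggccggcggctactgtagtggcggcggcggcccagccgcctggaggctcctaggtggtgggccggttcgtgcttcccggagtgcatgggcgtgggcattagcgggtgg
Myh9: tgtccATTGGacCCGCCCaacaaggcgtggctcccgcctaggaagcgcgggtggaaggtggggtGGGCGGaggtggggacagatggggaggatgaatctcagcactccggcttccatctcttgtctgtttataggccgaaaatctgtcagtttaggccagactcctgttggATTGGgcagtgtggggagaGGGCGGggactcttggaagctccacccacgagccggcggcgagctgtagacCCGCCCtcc
The Myh9 window held 4 GGGCGG and 2 CCAAT matches, the Shroom3 window 2 CCAAT and 0 GGGCGG, and the Shroom2 window 1 GGGCGG and 0 CCAAT. Of 32851 such windows over all genes, 32.7% held GGGCGG and 33.8% held CCAAT. The Shroom3 and Shroom2 windows had 27 and 24 CpG dinucleotides and the Myh9 window 14, against a median of 6 over all windows. The window of the other Shroom3 start, not shown, held 1 GGGCGG, 1 CCAAT and 12 CpG dinucleotides. None of the 3 windows shown held AACCGGTT, a grainyhead-type motif found in 0.116% of all windows, or the homeodomain core TAATTA, found in 4.84%. These matches describe letters and do not show that a factor binds.

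Shroom3, the scaffold that recruits ROCK to apical junctions, was highest in the epithelial and neuroepithelial classes. In optic vesicle-like cells it stood at 11.7, 27.8, 22.2, 23.4 and 25.9 CPM in libraries 1 to 5, and in mesenchyme-like cells at 2.50, 4.31, 5.72, 10.1 and 19.6 CPM. Every library had the optic vesicle above the mesenchyme, but library 5 mesenchyme lay within the range of the optic vesicle libraries. Summed over libraries, Shroom3 was 23.7 CPM in optic vesicle-like cells (95% interval 22.6 to 24.8) against 8.89 CPM in mesenchyme-like cells (8.07 to 9.77), a ratio of 2.66 (2.39 to 2.97). Within libraries the ratio was 4.70, 6.44, 3.88, 2.31 and 1.32 in libraries 1 to 5.

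Shroom3 was the only member to pass the size rule as higher in optic vesicle-like than in mesenchyme-like cells, and 0 members passed as lower. That rule asked for at least a 2-fold ratio, at least 20 CPM in the higher class, a 95% interval that leaves out 1, and the same direction in every library with at least 20 cells of both classes. Of the 9 members, 7 reached 20 CPM in either class. Over the 5381 genes that did, 3.55% passed as higher and 4.68% as lower, and a count of 1 of 7 is too small to set the members apart from that background.

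Surface ectoderm-like cells held Shroom3 at 10.7, 26.3, 21.8, 17.1 and 20.4 CPM in libraries 1 to 5, overlapping the optic vesicle libraries. Their summed level of 20.7 CPM was 2.33 times that of mesenchyme-like cells (1.98 to 2.73), and Shroom3 was again the only member to pass as higher, with 0 lower. The background in this comparison was 5.92% higher and 3.34% lower of 5573 genes. The ratio narrowed to 1.69 and 1.04 in libraries 4 and 5, where the mesenchyme values were highest. Without library 2 it was 1.77 (1.45 to 2.15) and no longer passed. The optic vesicle level over the surface ectoderm level was 1.14 (0.998 to 1.31), above 1 in each of the 5 libraries but with an interval that holds 1.

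After thinning every cell to 10000 UMIs, 20.7% of optic vesicle-like, 16.5% of other forebrain-like, 18.8% of surface ectoderm-like and 9.21% of mesenchyme-like cells had a Shroom3 UMI. In erythroid-like cells, which should lack the gene, the thinned share was 0.395%. Before thinning the shares were 47.6%, 34.6%, 45.1% and 18.3% in those 4 classes and 0.791% in erythroid-like cells. The thinned shares leave out 53, 33, 7, 67 and 0 shallower cells in the same order.

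The other forebrain-like cells, the nearest neighbours of the optic vesicle, showed the widest range of Shroom3 between libraries of the 4 main classes after the mesenchyme. Its levels in optic vesicle-like cells, given above, stood against 7.31, 21.6, 41.6 and 46.8 CPM in other forebrain-like cells of libraries 1 to 4. The direction thus differed between libraries, with ratios of 1.60, 1.28, 0.533 and 0.50. The optic vesicle was the higher in libraries 1 and 2 and the lower in libraries 3 and 4. The summed ratio of 1.16 (1.05 to 1.29), which has library 5 in the optic vesicle only, hides this. With libraries weighted equally it was 0.725 (0.653 to 0.806), and without library 1 it was 0.776 (0.692 to 0.871).

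The libraries hold different sub-clusters of the other forebrain-like class. One, led by Wnt8b and Lhx5, gave 278 of 340 cells in library 1 and 140 of 266 in library 2, but 0 and 1 cells in libraries 3 and 4. The other, led by Dbx1 and Lhx5, was present in all 4 libraries. Within it alone, Shroom3 stood at 8.07 CPM (4.52 to 13.3), 25.4 CPM (20.0 to 31.8), 41.6 CPM (34.7 to 49.5) and 47.3 CPM (38.7 to 57.1) in libraries 1 to 4, so library 1 was again the lowest. These values within sub-clusters were added after the data had been seen.

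**Figure D1:**
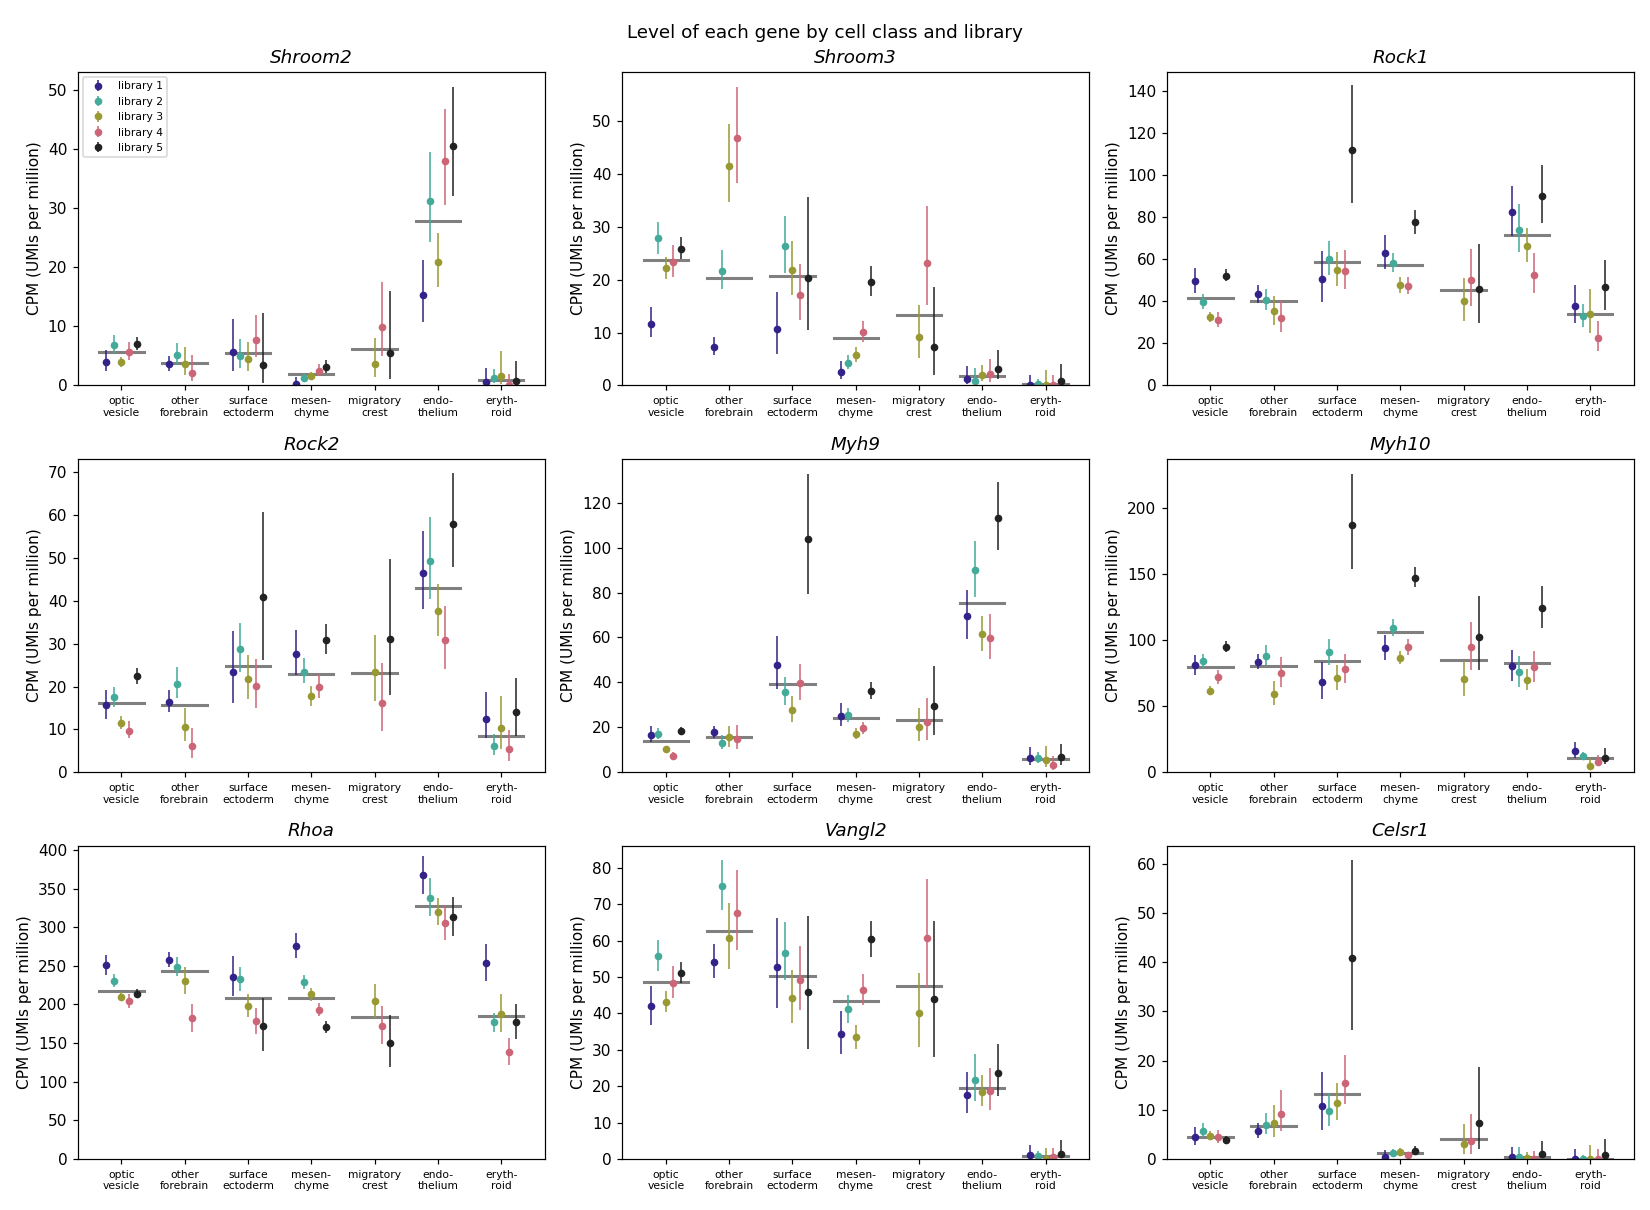
Level of each of the 9 genes in CPM (linear axis from 0) in 7 cell classes. Points are libraries 1 to 5 with exact 95% Poisson intervals, grey bars are the sums over libraries, and a library is drawn where it holds at least 20 cells of the class. Library 1 has the lowest Shroom3 point in the optic vesicle, other forebrain, surface ectoderm and mesenchyme, and library 5 the highest Myh9 point in the surface ectoderm, at 104 CPM.

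Library 1 had the lowest Shroom3 level in each of the 4 main classes: 11.7 CPM in the optic vesicle, 7.31 in the other forebrain, 10.7 in the surface ectoderm and 2.50 in the mesenchyme. The highest library exceeded it 2.37-fold (1.81 to 3.13), 6.40-fold (4.71 to 8.72), 2.46-fold (1.42 to 4.56) and 7.87-fold (4.19 to 16.7) in the same order. Being lowest in library 1 in all 4 classes held for 3.16% of 5861 genes. No other member showed it. In libraries 2, 3 and 4, 0 members were lowest throughout, beside 0.222%, 4.23% and 3.29% of genes, and 0 were highest throughout, beside 0.938%, 0.870% and 1.38%. The mesenchyme-like class also held different sub-clusters in different libraries: 152 of its 153 cells in library 1 came from a pair of sub-clusters. Within the first, led by Acta2 and Tagln, Shroom3 was 3.21 CPM (1.18 to 7.0), 4.86 CPM (1.58 to 11.3) and 4.02 CPM (1.93 to 7.40) in libraries 1 to 3. Within the second it was 1.91 CPM (0.522 to 4.90), 0.771 CPM (0.0195 to 4.30) and 1.28 CPM (0.155 to 4.62). The intervals overlap throughout, so a lower level in library 1 was not detectable inside these sub-clusters. Which embryo library 1 came from is not known, so library, stage and embryo cannot be told apart.

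Shroom2, the paralog known from vascular endothelium and pigmented epithelium, had a different distribution. Endothelium-like cells held 15.4, 31.2, 20.9, 38.1 and 40.6 CPM in libraries 1 to 5, against 3.91, 6.92, 3.90, 5.71 and 7.04 CPM in optic vesicle-like cells. The groups did not overlap. The summed levels were 27.8 and 5.69 CPM, a ratio of 4.88 (4.22 to 5.63). Surface ectoderm-like cells had 5.46 CPM, other forebrain-like cells 3.87 CPM and mesenchyme-like cells 1.86 CPM. In library 5, Shroom2 was 5.68 CPM in retina-like and 5.46 CPM in pigment-epithelium-like cells (ratio 1.04, 0.675 to 1.61).

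In the same endothelium-like cells Shroom3 was low, at 1.28, 0.905, 1.96, 2.11 and 3.08 CPM in libraries 1 to 5. Its summed endothelial level of 1.86 CPM was 0.0784 times that of the optic vesicle (0.0501 to 0.117). Shroom3 thus made up 6.27% of the Shroom2 and Shroom3 UMIs in endothelium-like cells (exact Clopper-Pearson interval 4.06% to 9.18%), against 80.6% in optic vesicle-like cells (78.9% to 82.3%). In other forebrain-like, surface ectoderm-like and mesenchyme-like cells the Shroom3 share was 84.1%, 79.1% and 82.7%. By library the share ran more widely, from 75.0% to 85.0% in the optic vesicle but from 67.3% in library 1 to 95.5% in library 4 of the other forebrain. In library 4 it was 80.3% (75.3% to 84.8%) in the optic vesicle, against 95.5% (89.9% to 98.5%) in the other forebrain and 68.8% (55.9% to 79.8%) in the surface ectoderm. Shroom2 stayed under 20 CPM in all of them and entered no count of passing genes.

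The main classes were low in the defining endothelial markers. Cdh5, a defining endothelial cadherin, was 296 CPM in endothelium-like cells and 0.491, 0.322, 0.173 and 0.495 CPM in optic vesicle-like, other forebrain-like, surface ectoderm-like and mesenchyme-like cells. The 8 markers of the list summed to 26.7 to 56.4 CPM per library in these classes. Most of that was Egfl7, at 29.6 to 36.4 CPM when summed over libraries, against 677 CPM in endothelium-like cells.

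Rhoa, the GTPase that activates ROCK, had the narrowest range of summed levels over the 4 main classes of the 9 genes. Its summed level was 217 CPM in optic vesicle-like, 243 in other forebrain-like, 208 in surface ectoderm-like and 209 in mesenchyme-like cells. The optic vesicle level was 1.04 times that of the surface ectoderm (0.999 to 1.09) and 1.04 times that of the mesenchyme (1.01 to 1.06). Endothelium-like cells were higher, at 328 CPM, in each of the 5 libraries.

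By library, Rhoa in optic vesicle-like cells stood at 251, 230.1, 209.6, 205 and 214 CPM in libraries 1 to 5, and in mesenchyme-like cells at 276, 229, 213, 193 and 171 CPM. Library 1 was the highest in each of the 4 main classes, which held for 9.15% of 5861 genes.

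The ROCK kinases Rock1 and Rock2, which phosphorylate myosin light chain and its phosphatase, moved alike. Rock1 in optic vesicle-like cells was 49.8, 39.7, 32.4, 31.2 and 52.3 CPM in libraries 1 to 5, against 50.6, 60.3, 54.8, 54.6 and 112 CPM in surface ectoderm-like cells. The optic vesicle was below the surface ectoderm in all 5 libraries, by little in library 1. The summed levels of 41.4 and 58.9 CPM gave a ratio of 0.703 (0.647 to 0.765), short of 2-fold. Against mesenchyme-like cells, at 57.5 CPM, the Rock1 ratio was 0.720 (0.684 to 0.758), again with the optic vesicle below in all 5 libraries.

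Rock2 in optic vesicle-like cells was 15.6, 17.5, 11.6, 9.72 and 22.5 CPM in libraries 1 to 5, against 23.5, 28.7, 21.8, 20.2 and 40.8 CPM in surface ectoderm-like cells. The optic vesicle was below in each library and the ranges overlapped. The ratio was 0.655 (0.576 to 0.748) against the surface ectoderm and 0.706 (0.650 to 0.767) against the mesenchyme. Rock1 supplied 71.8%, 71.9%, 70.4% and 71.4% of the ROCK UMIs in the optic vesicle, other forebrain, surface ectoderm and mesenchyme, and 62.5% in endothelium-like cells. Summed over libraries, this was the most constant paralog share of the 5 examined over the main classes. By library it was less even, from 66.2% (61.3% to 70.9%) in library 2 to 84.1% (74.8% to 91.0%) in library 4 of the other forebrain.

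Myh9 encodes the heavy chain of non-muscle myosin IIA. In optic vesicle-like cells it was 16.7, 17.1, 10.3, 7.22 and 18.2 CPM in libraries 1 to 5, against 47.8, 35.7, 27.7, 39.5 and 104 CPM in surface ectoderm-like cells. The highest optic vesicle library lay below the lowest surface ectoderm library. Summed, the levels were 14.1 CPM (13.3 to 15) and 39.2 CPM (35.6 to 42.9), a ratio of 0.360 (0.322 to 0.403).

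Myh9 was the only member to pass the size rule in optic vesicle against surface ectoderm, as lower, and 0 passed as higher. Of 5437 genes tested, 5.28% passed as lower and 1.80% as higher, against 1 of 7 tested members. The ratio was 0.350, 0.478, 0.370, 0.183 and 0.176 in libraries 1 to 5, and 0.337 (0.296 to 0.384) without library 5. The summed level of the 8 endothelial markers in surface ectoderm-like cells ran from 27.2 CPM in library 5 to 43.0 CPM in library 4, and the summed cranial mesenchyme markers there ran from 20.7 CPM in library 1 to 80.0 CPM in library 5. The part of either in the Myh9 level was not tested.

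The order of Myh9 over classes was endothelium-like (75.3 CPM), surface ectoderm-like (39.2), mesenchyme-like (24.0), migratory neural crest-like (23.4), other forebrain-like (15.8), optic vesicle-like (14.1) and erythroid-like (5.79). The mesenchyme and migratory crest did not differ beyond counting error, nor did the summed levels of the other forebrain and the optic vesicle. The optic vesicle sum includes library 5, which held no other forebrain-like cells. Within libraries 1 to 4 the Myh9 ratio of optic vesicle to other forebrain was 0.940, 1.29, 0.661 and 0.486. In library 4 the levels were 7.22 CPM (5.65 to 9.09) and 14.9 CPM (10.3 to 20.8).

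Myh10, the heavy chain of non-muscle myosin IIB that predominates in neural tissue, was far more even. Optic vesicle-like cells held 81.0, 84.1, 61.7, 72.3 and 95 CPM in libraries 1 to 5, surface ectoderm-like cells 68.5, 90.9, 71.2, 77.9 and 187 CPM, and mesenchyme-like cells 93.8, 109, 86.7, 94.6 and 147 CPM. Apart from library 5 ectoderm, the first pair of classes covered nearly the same range. The summed ratio of optic vesicle to surface ectoderm was 0.940 (0.878 to 1.01), and that of optic vesicle to mesenchyme was 0.746 (0.718 to 0.775), with the optic vesicle below in each library.

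The balance of the myosin heavy chains therefore differed by class. Myh10 made up 84.9% of the Myh9 and Myh10 UMIs in optic vesicle-like cells (84.0% to 85.8%), against 68.3% in surface ectoderm-like cells (65.8% to 70.7%). By library it was 82.9%, 83.1%, 85.7%, 90.9% and 83.9% in the optic vesicle, against 58.9%, 71.8%, 72.0%, 66.3% and 64.3% in the surface ectoderm, and the ranges did not overlap. Other forebrain-like and mesenchyme-like cells, at 83.6% and 81.6%, stood near the optic vesicle, and endothelium-like cells, at 52.3%, were below all of these. The balance was steadier across libraries than the levels: library 5 ectoderm was highest in both genes yet its share lay inside the range of the other libraries.

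**Figure D2:**
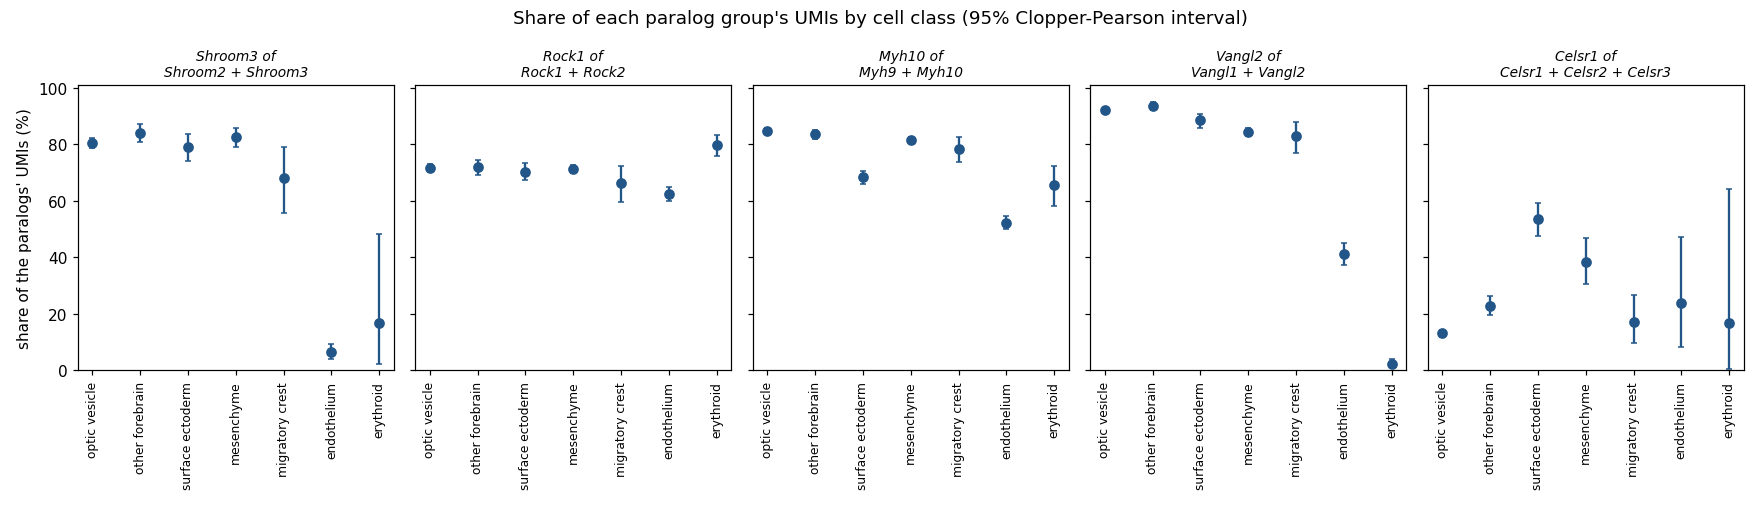
Share of the UMIs of each paralog group taken by Shroom3, Rock1, Myh10, Vangl2 and Celsr1 (percent, axis from 0) in 7 cell classes, summed over libraries, with exact 95% intervals. The Rock1 share stays between 70.4% and 71.9% in the first 4 classes, the Shroom3 share drops to 6.27% in the endothelium, and the Celsr1 share is 13.1% in the optic vesicle and 53.5% in the surface ectoderm.

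Vangl2, a core planar polarity transmembrane protein, was present in all 4 main classes at similar levels. Optic vesicle-like cells held 41.9, 55.7, 43.2 and 48.4 CPM in libraries 1 to 4, against 54.2, 75.0, 60.7 and 67.7 CPM in other forebrain-like cells. The optic vesicle was the lower of the pair in each of the 4 libraries, at 0.773, 0.743, 0.712 and 0.715 of the other forebrain level. The summed levels, with library 5 in the optic vesicle, were 48.5 and 62.6 CPM, a ratio of 0.776 (0.728 to 0.826). It was short of 2-fold.

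Surface ectoderm-like and mesenchyme-like cells had 50.3 and 43.5 CPM of Vangl2, and endothelium-like cells 19.6 CPM. Erythroid-like cells had 0.827 CPM. Vangl2 made up 92.1% of the Vangl1 and Vangl2 UMIs in optic vesicle-like cells, 93.7% in other forebrain-like, 88.6% in surface ectoderm-like and 84.4% in mesenchyme-like cells, against 41.2% in endothelium-like and 2.10% in erythroid-like cells.

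Celsr1, a seven-pass cadherin that bridges neighbouring cells in planar polarity, had the widest range over the 4 main classes of the 9 genes. In optic vesicle-like cells it was 4.44, 5.74, 4.75, 4.41 and 3.87 CPM in libraries 1 to 5, against 10.7, 9.67, 11.3, 15.5 and 40.8 CPM in surface ectoderm-like cells. The groups did not overlap. In mesenchyme-like cells it was 0.499, 1.17, 1.37, 0.771 and 1.63 CPM.

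Summed, Celsr1 in the optic vesicle was 0.345 times the surface ectoderm level (0.284 to 0.421) and 3.86 times the mesenchyme level (2.91 to 5.21), and in the surface ectoderm it was 11.2 times the mesenchyme level (8.21 to 15.5). All 3 directions held in each of the 5 libraries, but the level stayed under 20 CPM, below the minimum of the size rule. A Celsr1 UMI was seen in 3.94% of optic vesicle-like, 12.3% of surface ectoderm-like and 0.838% of mesenchyme-like cells after thinning, and in 0 of 253 erythroid-like cells. Taking 3 cells as the floor, that 0 is compatible with up to 1.19% of cells having a UMI at this thinned depth. Before thinning the shares were 13.7%, 32.1%, 2.91% and 0.395% in the same order.

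The paralog Celsr2 ran the other way between optic vesicle and ectoderm. It was 29.9 CPM in optic vesicle-like cells against 11.3 CPM in surface ectoderm-like cells, a ratio of 2.64 (2.21 to 3.17), and 1.71 CPM in mesenchyme-like cells, a ratio of 17.5 (14.0 to 22.0). Celsr1 thus made up 13.1% of the UMIs of Celsr1, Celsr2 and Celsr3 in optic vesicle-like cells (11.8% to 14.4%) and 22.8% in other forebrain-like cells, against 53.5% in surface ectoderm-like cells (47.5% to 59.4%).

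**Figure D3:**
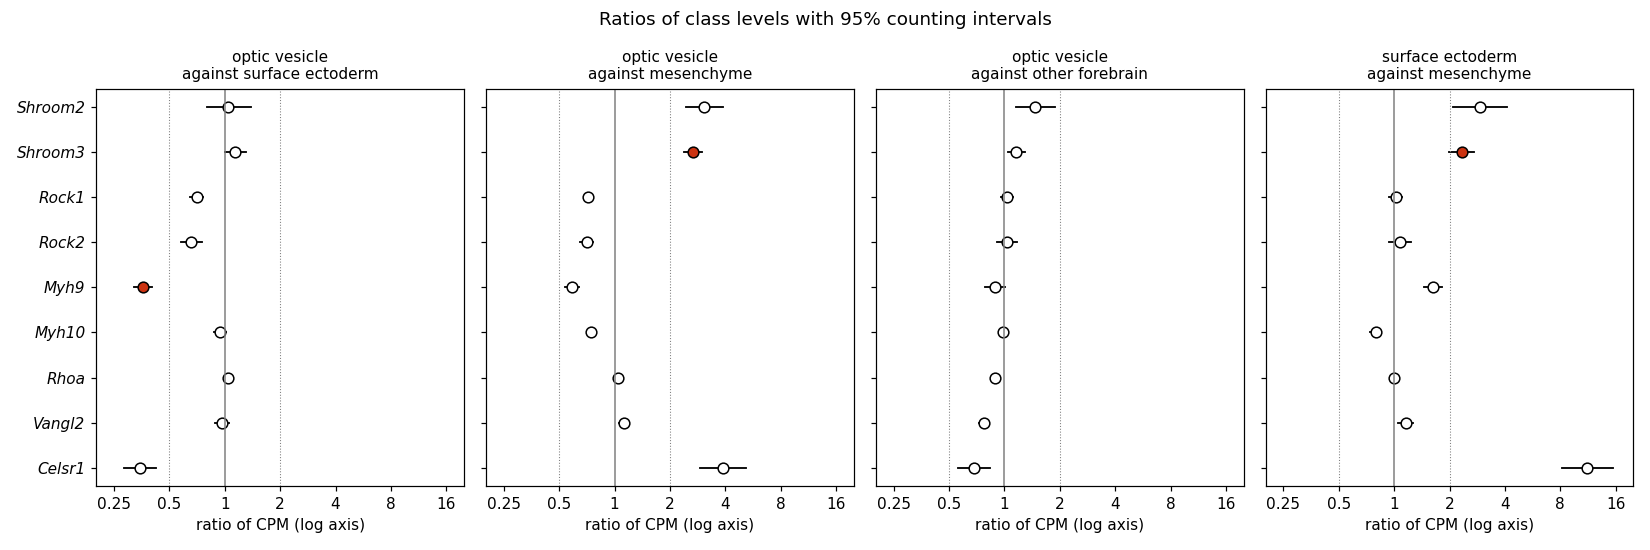
Ratio of CPM between cell classes for the 9 genes (log axis) with exact 95% counting intervals. Filled points passed the size rule, open points did not, and dotted lines mark 0.5 and 2. Myh9 against surface ectoderm (0.360) and Shroom3 against mesenchyme (2.66 from the optic vesicle and 2.33 from the surface ectoderm) are filled, while Shroom2 and Celsr1 have unfilled points throughout, under the minimum of 20 CPM.

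Against other forebrain-like cells, optic vesicle-like cells had 0 members passing in either direction of 5 tested, beside 0.983% higher and 1.02% lower of 5189 genes. In this comparison the median log2 ratio of the tested members was -0.02, against -0.09 over all tested genes. The optic vesicle sums include library 5, which held no other forebrain-like cells and was highest in Rock1, Rock2, Myh9 and Myh10, so this median is not matched by library. Within libraries 1 to 4 the Rock1 ratio was 1.15, 0.978, 0.916 and 0.964. In the same order it was 0.972, 0.952, 1.04 and 0.962 for Myh10 and 0.972, 0.925, 0.911 and 1.12 for Rhoa. For Myh9 it was less even, at 0.940, 1.29, 0.661 and 0.486. The Celsr1 ratio was below 1 in each library (0.776, 0.820, 0.654 and 0.481) and the Shroom2 ratio above 1 (1.10, 1.36, 1.08 and 2.62), both at levels under 20 CPM. Within the optic vesicle-like class, retina-like and pigment-epithelium-like cells could be compared in library 5 alone, with 244 and 222 cells. Here 0 of 6 tested members passed, beside 0.891% higher and 0.800% lower of 5501 genes. Shroom3 was 21.1 CPM in retina-like and 17.4 CPM in pigment-epithelium-like cells, a ratio of 1.21 (0.964 to 1.53). Myh10 was 1.15 times as high in the retina-like cells (1.04 to 1.28), Vangl2 1.16 times (1.0 to 1.35) and Myh9 1.27 times (0.984 to 1.64).

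The optic vesicle-like class fell into 9 sub-clusters, most of them from a single library. A sub-cluster of 189 cells, 143 of them from library 3, was led by Lhx2, Hes5, Hspa4l, Rax, Nkx6-2 and Nkx2-1. Nkx2-1 is also on the marker list of diencephalon and hypothalamus. Shroom3 was 36.5 CPM in that sub-cluster, against 18.1 CPM in a sub-cluster of 372 cells, 343 of them from library 3. Shroom3 ranged from 12.3 CPM in a sub-cluster of 168 cells, 159 of them from library 1, to 41.7 CPM in one of 252 cells, 250 of them from library 5. The sub-cluster with the highest Shroom3 level was led by Lhx2, Pax2, Rmst, Zic1 and Vax2. Within library 5 alone, its Shroom3 level was 1.98 times that of retina-like cells (1.63 to 2.40) and 2.40 times that of pigment-epithelium-like cells (1.94 to 2.97). Shroom2 was 1.71 times (1.16 to 2.54) and Vangl2 1.21 times (1.05 to 1.39) the retina-like level, and 1.78 times (1.19 to 2.70) and 1.40 times (1.2 to 1.63) the pigment-epithelium-like level. Myh9 was 1.14 times (0.894 to 1.45) the retina-like and 1.44 times (1.11 to 1.89) the pigment-epithelium-like level. Its Rock1, Myh10 and Rhoa levels were 0.967 (0.835 to 1.12), 0.967 (0.871 to 1.07) and 0.979 (0.911 to 1.05) times those of retina-like cells. This sub-cluster was singled out after its values were seen.

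A smaller library 5 sub-cluster of 97 cells, also led by Lhx2, Pax2 and Vax2, had the highest level of the 9 sub-clusters for every member except Shroom3. Myh9 there was 36.1 CPM, against 17.6 CPM in retina-like cells of the same library, a ratio of 2.05 (1.49 to 2.78). Its median depth of 14607 UMIs per cell was the lowest of the 9 and its Malat1 level of 4718 CPM the highest. The part of depth and RNA quality in this result was not tested. Celsr1 ranged from 3.45 to 6.02 CPM over the 9 sub-clusters.

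**Figure D4:**
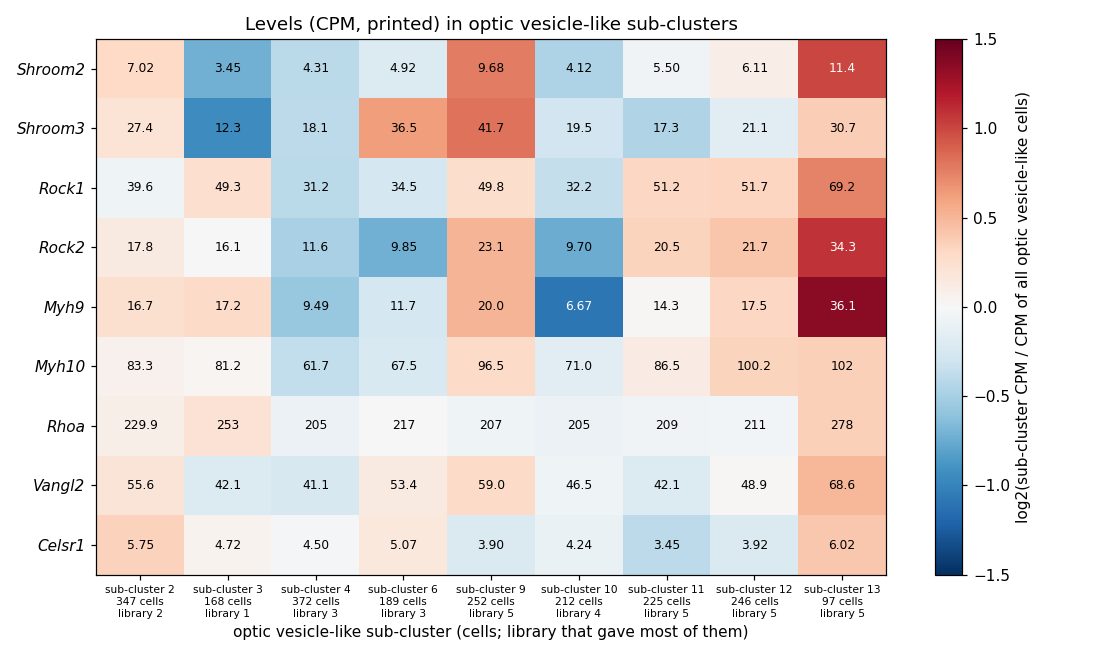
Levels of the 9 genes in the 9 optic vesicle-like sub-clusters. Numbers are CPM, colours the log2 ratio to the level in all optic vesicle-like cells, and each column names its cells and the library that gave most of them. Shroom3 is lowest in sub-cluster 3 (12.3 CPM, library 1) and highest in sub-cluster 9 (41.7 CPM, library 5), and Myh9 is lowest in sub-cluster 10 (6.67 CPM) and highest in sub-cluster 13 (36.1 CPM).

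Of the 9 genes, 4 were highest in library 5 throughout. Rock1, Rock2, Myh9 and Myh10 were each highest there in the optic vesicle, the surface ectoderm and the mesenchyme, a pattern that 19.8% of 5861 genes shared. Rhoa was lowest there in the surface ectoderm and the mesenchyme, at 172 and 171 CPM. No member was lowest there in all 3 classes, which held for 12.4% of genes. Malat1, a nuclear RNA, was also highest in library 5, at 3995 CPM in the optic vesicle, 7017 in the surface ectoderm and 5689 in the mesenchyme, against at most 3198, 3554 and 3250 CPM in libraries 1 to 4. The median share of mitochondrial UMIs was 2.18%, 3.10% and 3.27% in library 5 in the same classes, against at most 1.61%, 2.20% and 2.10% elsewhere. The part of RNA quality in these 4 genes' levels was not tested.

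The 32 surface ectoderm-like cells of library 5 came mostly from a sub-cluster led by Sostdc1, Wnt6 and Wnt4, of which 25 of 34 cells were from that library. A further 38 ectodermal cells of library 5 formed a cluster that was given no name and was led by Sostdc1, Epcam and Cdh1, with the lens genes Maf, Pitx3 and Cryab among its 10 leading genes. In it Maf was 217 CPM, against 10.2 CPM in the surface ectoderm-like cells of library 5. Cryab was 97.6 against 71.4 CPM (ratio 1.37, 0.935 to 2.02), and the lens gene Foxe3 had 0 UMIs in both. Shroom3, the scaffold needed for lens pit invagination in mouse, was 20.2 CPM in the Maf-rich cells against 20.4 CPM in the surface ectoderm-like cells (ratio 0.989, 0.451 to 2.25). Myh9 was 44.9 against 104 CPM (ratio 0.433, 0.283 to 0.655), Myh10 111 against 187 CPM (0.594, 0.448 to 0.786) and Celsr1 15.7 against 40.8 CPM (0.385, 0.184 to 0.775). A Shroom3 difference inside that interval was not detectable with 38 and 32 cells.

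Related genes were followed in 4 lists with 88 genes in all. Of 22 further Shroom and actomyosin genes, 13 were tested in optic vesicle against surface ectoderm, with 0 passing as higher and 2 as lower. These were Tpm1, a tropomyosin, at 153 against 678 CPM (ratio 0.225, 0.219 to 0.232), and Mylk, myosin light chain kinase, at 9.09 against 22.9 CPM (0.397, 0.344 to 0.460). Against mesenchyme-like cells 12 were tested, with 0 higher and 3 lower. The 3 were Myl9, a myosin regulatory light chain, at 6.14 against 78.1 CPM (0.0786, 0.0711 to 0.0867), Tpm4 at 211 against 464 CPM (0.456, 0.447 to 0.466) and Tpm1 at 153 against 328 CPM (0.465, 0.454 to 0.476). The median log2 ratio of this list was -0.31 against the surface ectoderm and -0.45 against the mesenchyme, beside 0.00 and -0.04 over all tested genes.

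Of 20 genes for RhoA-related GTPases and their regulators, 10 were tested against the surface ectoderm, with 0 higher and 2 lower in the optic vesicle. Rnd3, an atypical member of the RhoA family that opposes RhoA signalling, was 16.4 against 39.6 CPM (0.414, 0.371 to 0.462), and Arhgap29, a RhoA GTPase-activating protein, 13.3 against 27.0 CPM (0.490, 0.431 to 0.559). Against the mesenchyme 0 of 12 passed in either direction. Between surface ectoderm and mesenchyme 0 of 12 were higher and 1 was lower, Rhoc, at 25.7 against 80.1 CPM (0.321, 0.285 to 0.362).

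Of 21 apical junction and actin assembly genes, 18 were tested against the surface ectoderm, with 0 higher and 1 lower: Pvrl2, which encodes a nectin of adherens junctions, at 59.2 against 145 CPM (0.409, 0.387 to 0.433). Against the mesenchyme 16 were tested, with 2 higher and 2 lower. The apical polarity gene Crb2 was 28.8 against 3.86 CPM (7.46, 6.42 to 8.71) and the cadherin gene Cdh2 89.7 against 32.7 CPM (2.74, 2.59 to 2.90). Marcks, an actin-binding membrane protein, was 244 against 629 CPM (0.388, 0.380 to 0.395) and vinculin (Vcl) 9.91 against 24.1 CPM (0.410, 0.374 to 0.451).

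Surface ectoderm against mesenchyme gave the most junction genes, 4 higher and 1 lower of 18. Among the higher genes were the tight junction scaffold Tjp1 (63.6 against 21.2 CPM, 3.01, 2.73 to 3.31), the polarity kinase Prkci (39.2 against 15.5 CPM, 2.52, 2.24 to 2.84) and afadin (Mllt4, 70.5 against 28.4 CPM, 2.48, 2.27 to 2.71). Marcks was lower (219 against 629 CPM, 0.348, 0.334 to 0.362). From the actomyosin list, 14 were tested, with Mylk (22.9 against 1.84 CPM, 12.5, 9.76 to 16.0) and Tpm1 (678 against 328 CPM, 2.07, 2.01 to 2.12) higher and Myl9 lower (18.7 against 78.1 CPM, 0.239, 0.208 to 0.275).

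Of 25 further planar polarity genes, only 6 reached 20 CPM in optic vesicle against surface ectoderm. Celsr2 passed as higher, with the values above, and Ror2, a receptor for Wnt5a, as lower, at 5.57 against 23.6 CPM (0.235, 0.201 to 0.275). Against the mesenchyme the same counts of 1 higher and 1 lower of 6 came from Celsr2 and from Ror2, at 5.57 against 21.3 CPM (0.261, 0.233 to 0.293). Between surface ectoderm and mesenchyme 0 of 5 passed. In optic vesicle against other forebrain, and in retina-like against pigment-epithelium-like cells, 0 genes of any of the 4 lists passed.

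Similarity of pattern was described by Pearson's r of log2(CPM + 5) over 32 sums of class and library, which share libraries and depth and are not independent. Among the members, Rock2 and Myh9 (r = 0.90) and Rock1 and Rock2 (0.90) were most alike, then Rock1 and Myh9 (0.88) and Myh10 and Vangl2 (0.88). Shroom3 resembled Vangl2 (0.82) and Celsr1 (0.72), and not its paralog Shroom2 (-0.08). Over 6639 genes, the 3 nearest to Shroom3 were Tcp11l1 (0.92), Zfp219 (0.91) and Dlk1 (0.91), and those nearest to Shroom2 were Bvht (0.95), Map4k2 (0.93) and Pcdh17 (0.93).

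For Rock1 the nearest were Ascc3 (0.91) and Rock2 (0.90), so its paralog stood second among all genes. For Rock2 the nearest 3 were Wasf2 (0.93), Igf2r (0.92) and 4921524J17Rik (0.91), and for Myh9 Bambi, Lamc1 and Wasf2 (0.94 each). For Myh10 they were Midn (0.98), Zfp644 (0.97) and Dhx30 (0.97), and for Rhoa Arpc4 (0.89), Naa20 (0.89) and Sypl (0.88). For Vangl2 they were 1500009L16Rik (0.98), Siva1 (0.98) and Mthfd2l (0.97), and for Celsr1 Hs6st1 (0.94), Rab38 (0.94) and Wwc1 (0.93). Nothing about shared control follows from these values.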

How the data were processed

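The authors deposited a single matrix of raw UMI counts per gene and cell, made with Cell Ranger on mm10 (GRCm38), per the submitters' processing notes. The kit was the third version of the 10x Genomics 3′ chemistry, per the labels' protocols. The Cell Ranger version, its cell calling and any equalising of depth are not given in any source used here.

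A barcode passed with 1000 or more genes and a mitochondrial share of 10% or less of its UMIs, and 22 failed. Scrublet (scanpy 1.11.5, expected rate 6%) removed 66 doublets (0.808%). It marked 0.403% to 1.46% per library, so doublets probably remain. Cells were scaled to 10000 UMIs, log-transformed, and clustered by Leiden at resolution 1 from 2000 variable genes, 30 principal components and 15 neighbours, with no integration and without the members and the related lists. Neuroepithelial, ectodermal and mesenchymal clusters were clustered again. A name needed at least 3 markers (5 of 10 for optic vesicle) with at least 10 UMIs and a 2-fold CPM after adding 5 CPM, and no contradiction among the 10 leading genes. This scoring was set after seeing the data. Kept out of every class were 800 cells in clusters with under 1000 CPM Malat1, 322 mixed, 721 neuroepithelial, 285 crest and mesoderm (248 from library 1) and 71 ectodermal cells.

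CPM, ratios and intervals were computed here from summed deposited counts (scipy 1.17.1), and the interval code was tested on simulated data. Intervals cover counting error only. There was no replicate, so no p-value is given. Levels in 388 endothelium-like cells were added after seeing the data. Named genes are the 9 members, at most 4 passing genes per list and direction, and the 3 nearest in pattern. The members and lists were chosen with earlier results of these data known. Alternatives changed filters, doublets, resolution, clustering genes, library weights, denominators, the CPM minimum and class borders, or left out each library. Of the 12 RefSeq promoter windows, 5 overlap no annotated exon, and 1 per gene was printed. Some genes that the naming rule covers are not reported here.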

Additional observations from a re-analysis of the deposited data

Results flagged for a closer look

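In surface ectoderm-like cells, library 5 lay farther from the other 4 libraries than a group of 5 would usually show for 4 of the 9 genes: Rock1 at 112 CPM (the others 50.6 to 60.3), Myh9 at 104 CPM (27.7 to 47.8), Myh10 at 187 CPM (68.5 to 90.9) and Celsr1 at 40.8 CPM (9.67 to 15.5). Chance flags about 1 in 20 such groups. The share of all genes for which library 5 lay as far out in this class was not computed. The count of 4 therefore does not set the members apart from other genes. Library 5 gave 32 of these cells. Their Malat1 level was 7017 CPM, against 2338 to 3554 CPM in libraries 1 to 4, and their median depth 16483 UMIs, against 28342 to 32687. Their summed optic vesicle markers stood at 107 CPM, against 384 to 499 CPM, and their summed cranial mesenchyme markers at 80.0 CPM, against 20.7 to 48.8 CPM. The part of these differences in the 4 levels was not tested. Library 5 also stood apart for Myh10 in endothelium-like cells, at 124 CPM against 69.7 to 80.3 CPM in libraries 1 to 4.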

How the results depend on the processing

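No paired test was made, because no label maps a library number to a labelled sample. Classes could still be compared within each library. Ratios within each library stand beside the results. No called direction reversed. With no minimum of CPM, 2 members were lower in optic vesicle against surface ectoderm (Myh9 and Celsr1), 3 higher in optic vesicle against mesenchyme and 3 higher in surface ectoderm against mesenchyme (Shroom2, Shroom3 and Celsr1 in both). The shares of all genes given above use the minimum of 20 CPM. They are no background for these counts, which do not set the members apart. The count of 1 higher in surface ectoderm against mesenchyme became 0 when cells needed 2000 genes and a mitochondrial share of 5% or less (Shroom3 ratio 2.28), and ranged from 0 to 1 when single libraries were left out. With libraries weighted equally, Shroom3 no longer passed there although its ratio of 2.27 stayed above 2-fold, and Myh9 (2.07) did pass. The summed Shroom3 level in the surface ectoderm, 20.7 CPM, was close to the minimum of 20 CPM. Equal weights count the 32 surface ectoderm-like cells of library 5, with Myh9 at 104 CPM, as much as any other library. The Myh10 level in optic vesicle-like cells was 119.9 CPM without mitochondrial, ribosomal and haemoglobin UMIs, and 71.5 to 86.7 CPM when single libraries were left out. Shroom3 in optic vesicle against other forebrain, at 1.16, was 0.776 without library 1. Keeping doublets left no retina-like cluster, and leaving out library 5 removed the comparison of retina-like with pigment-epithelium-like cells. Counting the unnamed crest cluster as mesenchyme, an alternative added after seeing the data, gave a Shroom3 ratio of 3.05 in optic vesicle against mesenchyme. The causes were not tested.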
